A study of Mus musculus with 12 samples.

Results

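The 10 genes described here are 9 receptors of natural killer (NK) cells and related lymphocytes and the chemokine Xcl1. They were chosen by symbol, as Klrd1, Klre1, Klrk1, Klrc1, Klrc2, Klrb1c, Klrg1, Ncr1, Cd69 and Xcl1, from a table of 57186 genes, and all 10 were found in it and passed the filter on low counts. Poly(A) RNA was sequenced from 12 breast tumours of mice bearing 4T1 cells, a murine mammary carcinoma line that models triple-negative breast cancer. In the 6 Tn tumours the 4T1 cells carried CRISPR/Cas9 silencing of Cosmc (gene C1galt1c1), which encodes a chaperone of the O-glycan extending enzyme and without which cells carry the short Tn antigen. In the 6 WT tumours they were parental. No other treatment is named for either group, and all 12 libraries carry the same batch label. The labels used here do not give the strain, sex or age of the hosts or the time of collection, and they do not say whether the silenced cells were 1 clone. The 6 tumours of each group are described as biological replicates chosen across tumour sizes, so the p-values measure the spread between tumours.

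NK cells kill tumour and infected cells without prior priming, and they integrate signals from activating and inhibitory receptors. Many of these receptors are C-type lectin-like proteins encoded side by side in the NK gene complex, and many of them are shared with activated CD8 T cells, gamma delta T cells or other innate lymphocytes. CD94 (Klrd1) pairs with NKG2A (Klrc1) into an inhibitory receptor or with NKG2C (Klrc2) into an activating one, both of which read the non-classical MHC molecule Qa-1 (H2-T23), while NKG2D (Klrk1) reads stress-induced ligands on damaged cells. NK cells and CD8 T cells release the chemokine XCL1, which attracts dendritic cells that carry its receptor XCR1.

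The libraries held 113575859 to 156880766 counts each. C1galt1c1, the silenced gene, had 11.3 ± 0.775 CPM (counts scaled to the TMM-adjusted size of each library) in Tn tumours and 19.6 ± 3.05 CPM in WT tumours (SD, n = 6 each), and no WT tumour reached down to a Tn tumour (log2 fold change -0.80 ± 0.11 SE, edgeR adjusted p = 0.000201). Of 19255 genes tested, 3752 (19.5%) were higher and 3342 (17.4%) lower in Tn tumours at an edgeR adjusted p under 0.05, and with upper-quartile scaling these were 3094 and 3844. Of the 12 libraries, Tn tumour 4 had the highest summed B cell markers (2051 CPM, against 4.57 to 15 CPM in WT tumours), Tn tumour 6 the highest keratinocyte markers (3036 CPM) and WT tumour 6 the highest adipocyte markers (1299 CPM). For the 10 genes and the ratios between genes, values without these 3 libraries are given where they change a call. For the other genes named they are not given, so no statement is made on whether those calls hold.

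All 10 genes were higher in Tn tumours (10 of 10 with an edgeR adjusted p under 0.05, where 19.5% of all tested genes were called higher). Klrc2 and Klre1 passed the filter on low counts through the Tn tumours, which favours a rise. Their median log2 fold change was 2.30, against 0.01 over all tested genes. The 6 Tn tumours lay above every WT tumour for 6 of the 10, namely Klrd1, Klre1, Klrc1, Klrc2, Cd69 and Xcl1, a separation seen in 8.81% of all tested genes. In whole tumours, fewer cells of a type and less RNA per cell cannot be told apart. Tn and WT tumours also differed in T cell markers, with summed Cd3d, Cd3e and Cd3g of 15.3 to 142 CPM (median 25.4) in Tn tumours and 0.949 to 5.70 CPM (median 2.99) in WT tumours, without overlap.

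**Figure D1:**
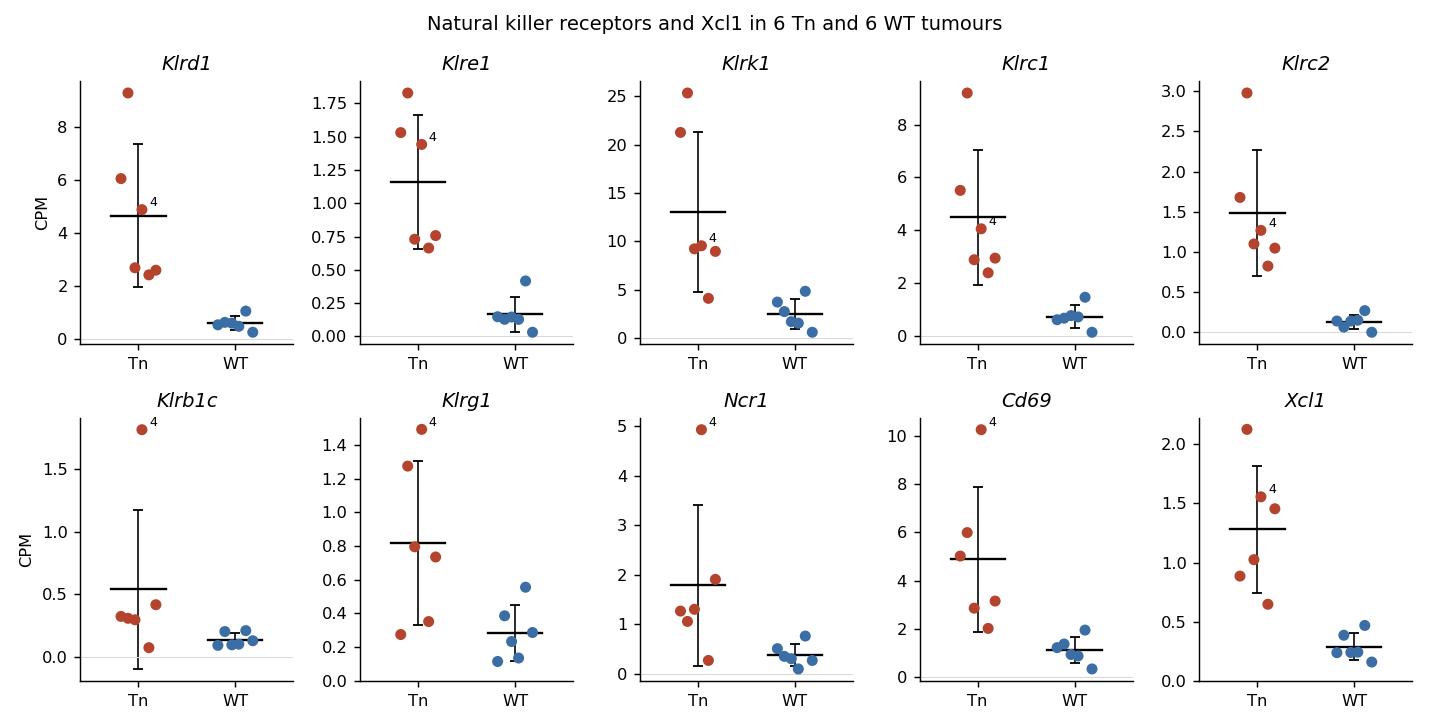
Level of each gene in TMM-scaled CPM in 6 Tn and 6 WT tumours, 1 panel per gene with its own axis; points are tumours, bars the mean and SD, and Tn tumour 4 is marked. For Klrd1, Klre1, Klrc1, Klrc2, Cd69 and Xcl1 the lowest Tn tumour lies above the highest WT tumour, and for Klrb1c and Ncr1 Tn tumour 4 stands above the other Tn tumours.

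Klrd1 (ENSMUSG00000030165, GRCm39 chromosome 6, 129568745 to 129575738, plus strand), the CD94 subunit that every NKG2A and NKG2C receptor needs, had 2.42 CPM at the lowest, 3.78 at the median and 9.26 at the highest in Tn tumours, against 0.255, 0.567 and 1.05 CPM in WT tumours. The groups did not overlap, and behind these levels stood 302 to 1207 counts in Tn tumours and 32 to 121 counts in WT tumours. The means were 4.64 ± 2.7 CPM in Tn and 0.591 ± 0.261 CPM in WT tumours, and the log2 fold change was 2.97 (SE 0.42, edgeR adjusted p = 0.000279).

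Klrc1 (ENSMUSG00000030167, chromosome 6, 129642978 to 129655936, minus strand), the inhibitory NKG2A chain, had 2.39, 3.50 and 9.19 CPM (lowest, median and highest) in Tn tumours, against 0.144, 0.699 and 1.47 CPM in WT tumours, so the groups were apart. The log2 fold change of Klrc1 was 2.62 ± 0.48 (edgeR adjusted p = 0.00149). Klrc2 (ENSMUSG00000052736, chromosome 6, 129624459 to 129637652, minus strand), the activating NKG2C chain, had 0.824, 1.18 and 2.98 CPM in Tn tumours, against 0, 0.139 and 0.269 CPM in WT tumours. WT tumour 6 had 0 counts of Klrc2, which allows up to 0.0478 CPM at 3 read pairs (6 counts), and the other WT tumours had at most 31. The groups did not overlap here either, and Klrc2 had the largest log2 fold change of the 10 genes, 3.54 ± 0.64 (edgeR adjusted p = 0.00135). These paralogs share sequence: 14.1% of the 100-base windows of Klrc1 transcripts also occur in Klrc2, and 7.03% of those of Klrc2 in Klrc1 or Klrc3, so reads there may not be assigned to 1 gene.

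The inhibitory and activating chains did not keep the same proportion. The log2 ratio of Klrc1 to Klrc2 was 1.56 ± 0.12 in Tn tumours and 2.57 ± 0.55 in WT tumours (SD, n = 6 each), a difference of -1.01 (exact permutation test, two-sided, p = 0.00216, the smallest it can give; adjusted p = 0.0108 over 5 ratios). The highest Tn ratio was below the lowest WT ratio, so Klrc2 was higher relative to Klrc1 in Tn tumours. The ratio used a prior count of 2, and since Klrc2 counts in WT tumours were low the size depended on it, with -1.40 at a prior count of 0.5 and -0.69 at 5. Without Tn tumours 4 and 6 and WT tumour 6 the difference was -0.85 (exact permutation test, p = 0.0159, adjusted p = 0.0661). That unadjusted p was the smallest the test can give with fewer tumours, so the lost call alone does not measure a weaker difference.

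Klrk1 (ENSMUSG00000030149, chromosome 6, 129587286 to 129600827, minus strand), the activating receptor NKG2D, had 4.09, 9.37 and 25.3 CPM (lowest, median and highest) in Tn tumours, against 0.582, 2.20 and 4.82 CPM in WT tumours. Here 5 of 6 Tn tumours lay above every WT tumour, and Tn tumour 5 lay below WT tumour 5. The means were 13.1 ± 8.28 CPM in Tn and 2.50 ± 1.56 CPM in WT tumours, a log2 fold change of 2.38 ± 0.53 (edgeR adjusted p = 0.00461). Klre1 (ENSMUSG00000050241, chromosome 6, 129554868 to 129562790, plus strand), the lectin-like receptor next to Klrd1 that pairs with Klri proteins, had 0.664, 1.10 and 1.83 CPM in Tn tumours, against 0.0319, 0.137 and 0.417 CPM in WT tumours. The groups were apart, with WT tumour 5 above the other WT tumours, and the log2 fold change was 2.80 ± 0.49 (edgeR adjusted p = 0.00113).

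Windows of 250 bases before the annotated start were available for 7 of the 10 genes in the RefSeq promoter table (build GRCm38.p6), taking the first window listed for each gene. Those of Klrk1, Klrc1, Klrc2 and Ncr1 are shown, since these genes differ in fold change and in their order over tumours and yet hold the same short word. They lie at chr6:129623865-129624114 (minus strand), chr6:129678974-129679223 (minus strand), chr6:129660597-129660846 (minus strand) and chr7:4337465-4337714 (plus strand). Capitals mark TGTGGT, the core recognised by RUNX factors, or ACCACA, the same word on the other strand.
Klrk1: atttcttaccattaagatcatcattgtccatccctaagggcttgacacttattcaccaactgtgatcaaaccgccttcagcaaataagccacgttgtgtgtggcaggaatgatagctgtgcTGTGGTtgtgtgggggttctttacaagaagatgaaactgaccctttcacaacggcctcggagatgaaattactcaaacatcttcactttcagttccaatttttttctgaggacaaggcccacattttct
Klrc1: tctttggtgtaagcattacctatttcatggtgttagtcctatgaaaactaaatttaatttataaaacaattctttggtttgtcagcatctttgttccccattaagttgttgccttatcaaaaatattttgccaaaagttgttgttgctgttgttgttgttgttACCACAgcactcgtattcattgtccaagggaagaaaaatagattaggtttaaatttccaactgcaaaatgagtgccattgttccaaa
Klrc2: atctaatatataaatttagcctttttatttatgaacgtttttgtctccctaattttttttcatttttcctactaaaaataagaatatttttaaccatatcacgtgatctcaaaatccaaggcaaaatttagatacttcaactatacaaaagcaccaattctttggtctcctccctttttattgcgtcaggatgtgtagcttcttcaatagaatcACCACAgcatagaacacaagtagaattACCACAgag
Ncr1: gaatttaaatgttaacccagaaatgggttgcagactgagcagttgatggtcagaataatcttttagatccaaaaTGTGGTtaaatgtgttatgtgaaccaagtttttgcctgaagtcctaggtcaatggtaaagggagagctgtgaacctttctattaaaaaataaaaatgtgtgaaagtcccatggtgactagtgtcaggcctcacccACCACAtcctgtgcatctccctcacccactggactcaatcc
TGTGGT or ACCACA occurred in 7 of 7 windows, those of Klre1, Klrk1, Klrc1, Klrc2, Klrb1c, Ncr1 and Xcl1, and in 14% of all 32851 windows of the table (4614). GGAAGT or ACTTCC, an ETS core, occurred in 2 of 7 (Xcl1 and Klrb1c) and in 19.7% of all windows. TCACAC or GTGTGA, a T-box core, occurred in 2 of 7 (Xcl1 and Ncr1) and in 12.3% of all windows. The RUNX core was picked after the sequences had been read, and a match is a description of letters. Klrd1, Klrg1 and Cd69 are named only.

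Ncr1 and Klrb1c are the receptors most used to define NK cells. Ncr1 (ENSMUSG00000062524, chromosome 7, 4340723 to 4348163, plus strand), the activating receptor NKp46, had 0.272, 1.29 and 4.93 CPM (lowest, median and highest) in Tn tumours, against 0.100, 0.331 and 0.764 CPM in WT tumours. The groups overlapped by Tn tumour 5 alone, and the highest value belonged to Tn tumour 4, the library with the most B cell marker counts; the part of B cells in this value was not tested. The log2 fold change was 2.22 ± 0.61 (edgeR adjusted p = 0.0140), 1.61 without Tn tumour 4 (edgeR adjusted p = 0.0269) and 1.28 without Tn tumours 4 and 6 and WT tumour 6 (edgeR adjusted p = 0.106), which did not pass.

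Klrb1c (ENSMUSG00000030325, chromosome 6, 128755448 to 128766178, minus strand), the activating receptor NK1.1 of the NKR-P1 family, was the lowest of the 10 genes per kilobase of exon in Tn tumours. It had 0.072, 0.315 and 1.82 CPM in Tn tumours, against 0.0905, 0.114 and 0.208 CPM in WT tumours. Tn tumour 4 stood alone at the top and Tn tumour 5 lay below every WT tumour, with 9 counts at the lowest and 252 at the highest in Tn tumours and 11 to 25 counts in WT tumours. The log2 fold change was 1.97 ± 0.62 (edgeR adjusted p = 0.0264), and without Tn tumour 4 it was 1.05 (edgeR adjusted p = 0.0585). The call was also lost when WT tumour 1, 3 or 4 was left out (edgeR adjusted p = 0.0513, 0.0559 and 0.0554) and with limma voom (1.32, adjusted p = 0.0658). Of its transcript windows, 9.22% also occur in Klrb1a or in Gm44511, which overlaps Klrb1c on the same strand and had 0 counts in every tumour. Reads there may not be assigned to 1 gene, so the level of Klrb1c may be understated.

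Klrg1 (ENSMUSG00000030114, chromosome 6, 122247555 to 122259841, minus strand), an inhibitory receptor that reads cadherins and marks mature NK and effector T cells, lies outside the NK gene complex. It had 0.275, 0.765 and 1.49 CPM (lowest, median and highest) in Tn tumours, against 0.115, 0.261 and 0.556 CPM in WT tumours. In all, 4 of 6 Tn tumours lay above every WT tumour, the fewest of the 10 genes, and the log2 fold change was also the smallest, 1.52 ± 0.48 (edgeR adjusted p = 0.0265). It was 1.26 without Tn tumours 4 and 6 and WT tumour 6 (edgeR adjusted p = 0.116), and leaving out Tn tumour 2, Tn tumour 4, WT tumour 3 or WT tumour 4 gave an edgeR adjusted p of 0.0540, 0.0533, 0.0549 and 0.0559. Relative to Klrd1, Klrg1 was lower in Tn tumours, with a log2 ratio of -2.53 ± 1.04 in Tn and -1.08 ± 0.80 in WT tumours (difference -1.45, exact permutation test, p = 0.0173, adjusted p = 0.0216). The difference was -1.59 without the 3 libraries (exact permutation test, adjusted p = 0.0661), and leaving out WT tumour 2, 5 or 6 also ended the call.

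Cd69 and Xcl1 are induced when lymphocytes are activated. Cd69 (ENSMUSG00000030156, chromosome 6, 129244288 to 129252399, minus strand), an early activation antigen of NK, T and B cells that holds cells in tissue, had 2.02, 4.08 and 10.3 CPM (lowest, median and highest) in Tn tumours, against 0.335, 1.08 and 1.95 CPM in WT tumours. The lowest Tn tumour and the highest WT tumour were close but did not cross, and the log2 fold change was 2.13 ± 0.45 (edgeR adjusted p = 0.00334). Xcl1 (ENSMUSG00000026573, chromosome 1, 164759213 to 164763096, minus strand) had 0.648, 1.24 and 2.13 CPM in Tn tumours, against 0.160, 0.242 and 0.469 CPM in WT tumours. Its groups were apart, with the smallest relative spread of the 10 genes in Tn tumours, and the log2 fold change of Xcl1 was 2.15 ± 0.34 (edgeR adjusted p = 0.000566). The log2 ratio of Xcl1 to Ncr1 was -0.12 ± 1.06 in Tn and -0.25 ± 0.80 in WT tumours, a difference of 0.13 (exact permutation test, p = 0.805, adjusted p = 0.805). The antisense gene Gm20743 overlaps Xcl1 and had at most 4 counts in any tumour.

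Per kilobase of exon, the order of mean levels in Tn tumours was Klrd1 (3.67 ± 2.13 CPM per kb), Xcl1 (2.45 ± 1.03), Klrc1 (2.27 ± 1.29), Klrk1 (1.82 ± 1.15), Ncr1 (1.16 ± 1.06), Cd69 (0.749 ± 0.463), Klrg1 (0.580 ± 0.344), Klre1 (0.332 ± 0.143), Klrc2 (0.255 ± 0.135) and Klrb1c (0.182 ± 0.215). In Tn tumours no gene stood above the next by more than the larger SD of the pair. In WT tumours Xcl1 came first (0.554 ± 0.219 CPM per kb) and Klrc2 last (0.0219 ± 0.0156), and a gap above the larger SD lay between Cd69 (0.171 ± 0.0831) and Klre1 (0.0477 ± 0.0372) and between Klrb1c (0.0463 ± 0.0182) and Klrc2.

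The tumours with the highest levels fell into 2 sets. Tn tumour 2 was the highest Tn tumour for Klrd1, Klre1, Klrk1, Klrc1, Klrc2 and Xcl1, and Tn tumour 4 for Klrb1c, Klrg1, Ncr1 and Cd69. Tn tumour 5 was the lowest Tn tumour for 9 of the 10 genes, the exception being Klrg1, with Tn tumour 1 at the bottom. Among WT tumours, WT tumour 5 was the highest for all 10 genes and WT tumour 6 the lowest for 7.

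**Figure D2:**
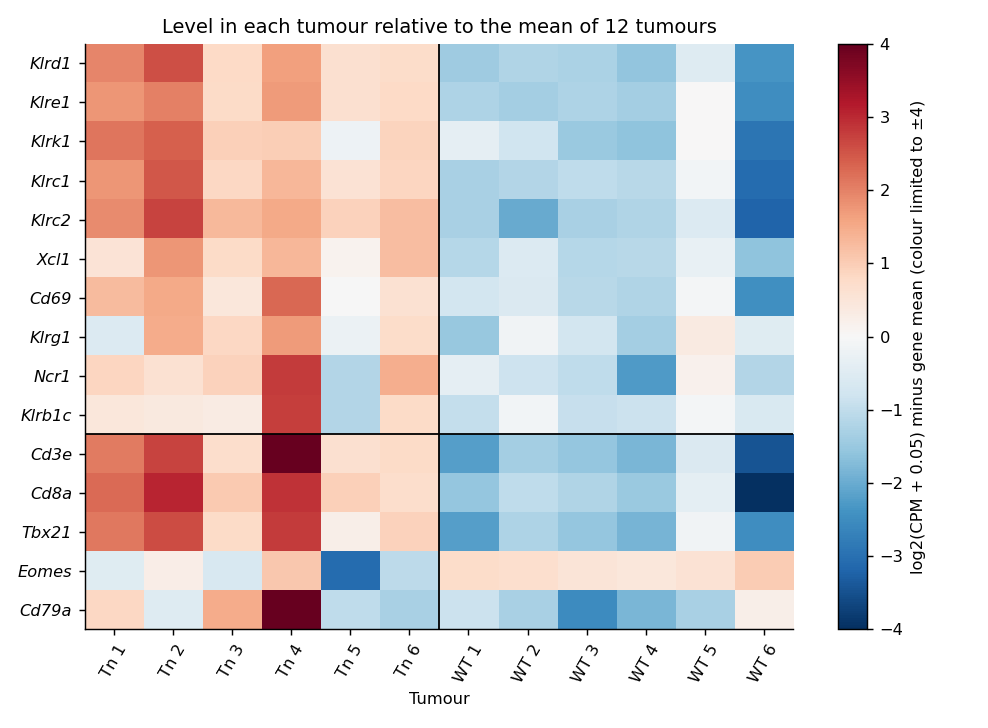
Level of the 10 genes and 5 other lymphocyte genes (below the line) in each tumour, as log2(CPM + 0.05) minus the mean of the gene over 12 tumours, Tn tumours on the left and WT tumours on the right, colour limited to ±4. The 10 genes are higher on the Tn side, Tn tumour 4 is highest for Ncr1, Klrb1c and Cd79a, and Eomes runs the other way in 5 of 6 Tn tumours.

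With the mean of each group removed, log2 CPM over the 12 tumours was also compared between genes, grouped after their values had been seen. Among Klrd1, Klre1, Klrk1, Klrc1 and Klrc2 the 10 pairwise correlations ran from r = 0.794 to 0.955 (Spearman rho 0.671 to 0.958). Ncr1 and Klrb1c correlated at r = 0.849 (rho 0.629), and at 0.775 without Tn tumour 4. Between the 5 lectin-like genes and Ncr1 or Klrb1c the range was 0.0851 to 0.457, and 0.165 to 0.611 without Tn tumour 4. With Cd8a, a CD8 T cell coreceptor chain, the 5 genes correlated at 0.788 to 0.933, and Ncr1 and Klrb1c at 0.306 to 0.309. With the B cell receptor subunit Cd79a the 5 genes gave -0.197 to 0.0544, and Ncr1 and Klrb1c gave 0.608 to 0.762, or 0.242 without Tn tumour 4. With Cd3e the ranges overlapped over all 12 tumours, since the 5 genes gave 0.611 to 0.825, Ncr1 0.556 and Klrb1c 0.677. Without Tn tumour 4 they did not, as the 5 genes gave 0.85 to 0.969, Ncr1 0.298 and Klrb1c 0.379. Cd69 correlated at 0.727 to 0.881 with the 5 genes and at 0.94 with Cd3e, against 0.663 with Ncr1 and 0.668 with Klrb1c, although its highest Tn tumour was Tn tumour 4. Xcl1 correlated at 0.600 to 0.725 with the 5 genes and at 0.745 with Klrg1. These points share their libraries and are a description.

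Over the same 12 tumours, among genes averaging 1 CPM or more, the pattern most like that of Klre1 was in Zbp1 (r = 0.956), Klrc1 (0.955), Trafd1 (0.953), Fasl (0.949) and Pdcd1 (0.944). For Ncr1 it was Ly9 (r = 0.877), Tcstv4 (0.865), Slamf7 (0.857), Ctse (0.853) and Cd83 (0.849). For Klrb1c it was Tnfrsf4 (r = 0.962), P2ry10 (0.955), Btla (0.948), Pacsin1 (0.937) and Flt3 (0.935). Tn tumour 4 stood above the other Tn tumours for Ncr1 and Klrb1c, and these patterns were not compared without it. For Klrg1 it was Gja5 (r = 0.888), Penk (0.882), Col14a1 (0.877), Slfn5 (0.876) and Dsc2 (0.876). For Xcl1 it was Cd84 (r = 0.901), AB124611 (0.894), Fgr (0.873), Ctla4 (0.846) and Icos (0.843).

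T cell levels moved with the 10 genes. Of 16 T cell markers 12 were higher and 1 (Thy1, log2 fold change -0.84) lower in Tn tumours by edgeR (19.5% and 17.4% of all tested genes), with Cd3e at 14.9 ± 16.5 CPM in Tn and 0.861 ± 0.535 CPM in WT tumours and Cd8a at 26.8 ± 18.1 CPM in Tn and 2.45 ± 1.49 CPM in WT tumours. Summed, the 16 markers reached 194 to 881 CPM in Tn and 268 to 374 CPM in WT tumours, and without Thy1, which made up most of the sum in WT tumours, 61.0 to 675 CPM in Tn and 37.8 to 62.7 CPM in WT tumours. With the CD3 level added to the edgeR model as a covariate, 0 of the 10 genes passed and 0 had an unadjusted p under 0.05. Of all 19255 genes tested, 5222 had an unadjusted edgeR p under 0.05 in that fit. The log2 fold changes then ran from -0.74 for Klrb1c to 1.51 for Klrc2, the lowest adjusted p was 0.274, and 5.25% of all tested genes were called higher. No other tool was run with this covariate, which itself separated the groups.

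**Figure D3:**
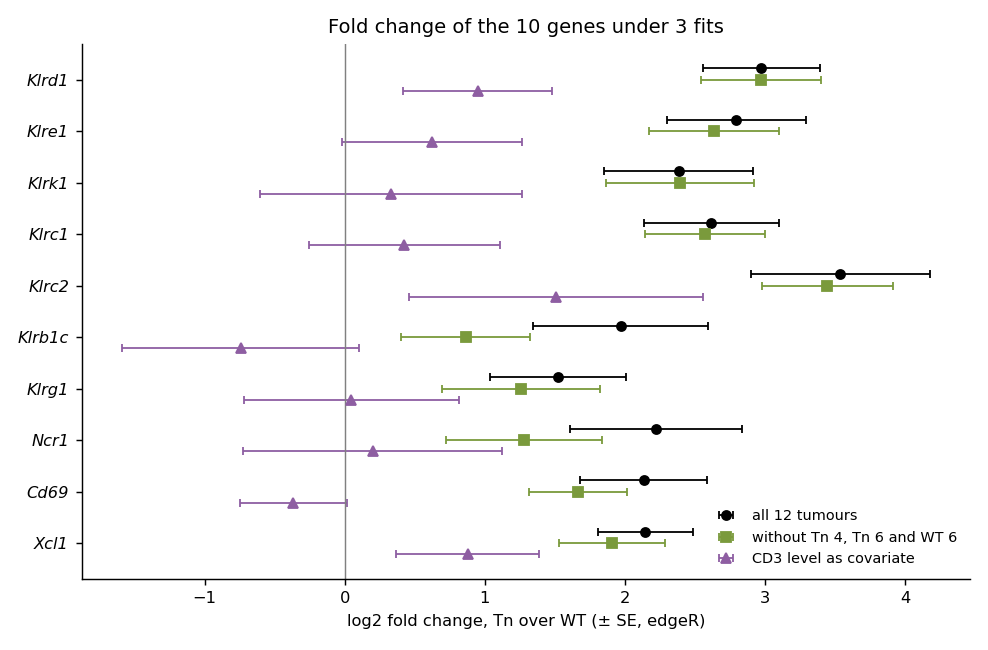
Log2 fold change (Tn over WT, with SE, edgeR) of the 10 genes in 3 fits: all 12 tumours (circles), without Tn tumours 4 and 6 and WT tumour 6 (squares), and with the CD3 level as a covariate (triangles). The circles and squares lie above 0 for all 10 genes, and the triangles run from -0.74 to 1.51.

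Ratios were also taken of Ncr1 and of Klre1 to Cd3e, a T cell receptor component. The log2 ratio of Ncr1 to Cd3e was -2.89 ± 1.14 in Tn and -1.09 ± 1.11 in WT tumours, a difference of -1.80 (exact permutation test, p = 0.0173, adjusted p = 0.0216), with 4 of 6 Tn tumours below every WT tumour. The log2 ratio of Klre1 to Cd3e was -3.16 ± 0.94 in Tn and -2.29 ± 0.37 in WT tumours, a difference of -0.88 (exact permutation test, p = 0.0173, adjusted p = 0.0216). So both receptors were higher in Tn tumours in CPM and lower relative to Cd3e. Without the 3 libraries the differences were -1.82 and -0.54 (exact permutation test, adjusted p = 0.0661 and 0.0893). The Ncr1 call also ended without WT tumour 1, 2, 5 or 6, and the Klre1 call without WT tumour 1, 4, 5 or 6.

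**Figure D4:**
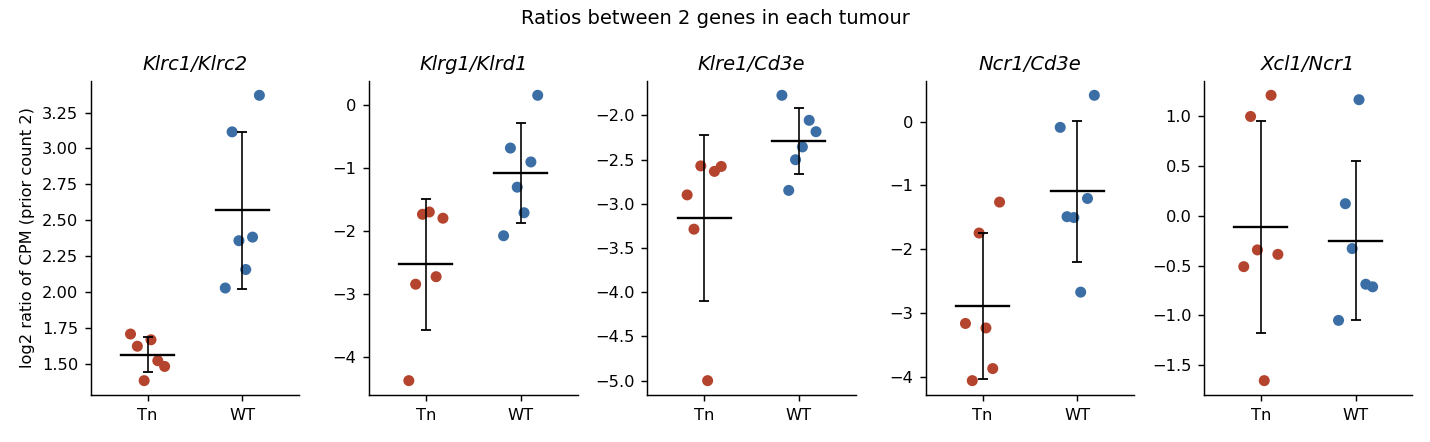
Log2 ratio between 2 genes in each tumour (CPM with a prior count of 2), for 5 ratios, Tn left and WT right; points are tumours and bars the mean and SD. For Klrc1/Klrc2 all 6 Tn tumours lie below every WT tumour, for Ncr1/Cd3e 4 of 6 do, and for Xcl1/Ncr1 the groups share their range.

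Without Tn tumours 4 and 6 and WT tumour 6, 7 of the 10 genes passed (16.9% of all 19600 genes tested were called higher). They were Klrd1 (log2 fold change 2.97, edgeR adjusted p = 0.00116), Klre1 (2.64), Klrk1 (2.39), Klrc1 (2.57), Klrc2 (3.45), Cd69 (1.67) and Xcl1 (1.91). Klrb1c (0.86, edgeR adjusted p = 0.182), Klrg1 and Ncr1 did not pass.

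The NK gene complex was read as the stretch of chromosome 6 between Klrb1a and the last Klra gene (GRCm39, 128586190 to 131224325), which holds 7 of the 10 genes. Of its 29 protein-coding genes that passed the filter on low counts, 22 were higher and 2 lower in Tn tumours (edgeR adjusted p under 0.05). Leaving out the 7, 15 of 22 were higher. On chromosome 6 in all, 275 of 1010 tested genes (27.2%) were higher. Of the genes that rose, Clec7a (log2 fold change 1.70) encodes the beta-glucan receptor Dectin-1, Clec12a (1.33) an inhibitory myeloid lectin and Clec9a (1.43) the dead-cell receptor of cross-presenting dendritic cells. Gabarapl1 (0.52), an autophagy protein, and BC035044 (2.41) also rose. The 2 that fell were Clec2e (-2.47) and Olr1 (-1.83), the scavenger receptor LOX-1. Clec2e had 2 to 6 counts in Tn tumours and 10 to 36 in WT tumours. It passed the filter through the WT tumours, which favours a fall.

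**Figure D5:**
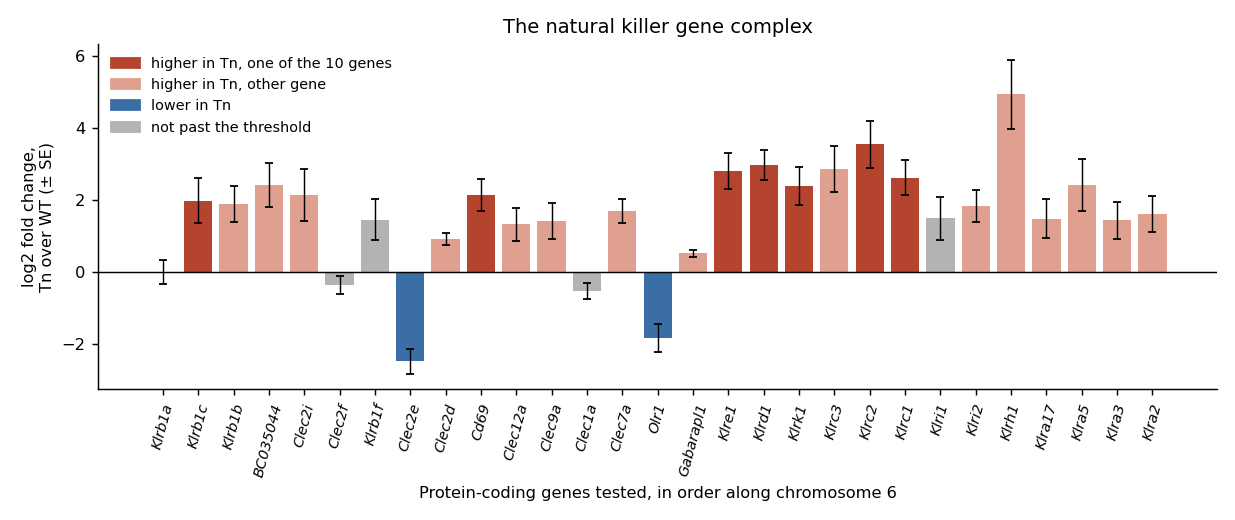
Log2 fold change (Tn over WT, with SE, edgeR) of the 29 protein-coding genes tested in the NK gene complex, in their order along chromosome 6. Dark bars are 7 of the 10 genes described here, pale red bars the 15 other genes that rose, blue bars Clec2e and Olr1, and grey bars genes not past the threshold.

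Of 11 Ly49 (Klra) genes, receptors for MHC class I, 4 passed the filter and all 4 rose, where 19.5% of all tested genes did. They were Klra5 (log2 fold change 2.42 ± 0.73 SE), Klra2 (1.61 ± 0.50), Klra17 (1.48 ± 0.54) and Klra3 (1.43 ± 0.51). Klra5 had at most 0.102 CPM in WT tumours and passed the filter through the Tn tumours, which favours a rise. Klra2 (31.1 ± 19.6 CPM in Tn tumours) and Klra17 were highest in Tn tumour 1 and lowest in Tn tumour 5. Among Tn tumours, summed macrophage markers had the same extremes (5957 and 1957 CPM), and their part in these levels was not tested. Klra1, Klra4, Klra7, Klra8, Klra9 and Klra10 had too few counts to test and Klra6 had none. Reads were counted on GRCm39 and the strain of the hosts is not given. Whether receptor genes of the tumours differ from that sequence was not tested, so few counts need not mean no expression. Of 8 further lectin-like receptors tested, 7 of them in the complex and Klrg2 elsewhere on chromosome 6, 4 rose, where 19.5% of all tested genes did. Klrc3 (NKG2E) was at 0.451 ± 0.253 CPM in Tn and 0.0617 ± 0.0558 CPM in WT tumours. Klrh1 was at 0.517 ± 0.464 CPM in Tn and 0.0167 ± 0.0259 CPM in WT tumours. Both passed the filter through the Tn tumours. Klrb1b (log2 fold change 1.88 ± 0.49) and Klri2 (1.83 ± 0.45), a partner of Klre1, also rose. Klri1 (1.49, edgeR adjusted p = 0.0721), the other partner of Klre1, and Klrb1f (1.46, edgeR adjusted p = 0.0607) did not pass. Klrb1a was at 0.505 ± 0.184 CPM in Tn and 0.503 ± 0.219 CPM in WT tumours. Of 4 Clec2 genes, a family that includes ligands of the NKR-P1 receptors, Clec2d (0.91 ± 0.17) and Clec2i (2.14 ± 0.71) rose. Clec2e, at few counts, fell and Clec2f (-0.36) did not pass, where 19.5% of all tested genes rose and 17.4% fell. Clec2i had 5.72 CPM in Tn tumour 4. Its mean was 0.536 CPM in the other Tn tumours and 0.317 CPM in WT tumours.

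Among ligands of the receptors, 2 of 9 genes tested rose and 3 fell, where 19.5% of all tested genes rose and 17.4% fell, with a median log2 fold change of -0.29 against 0.01 over all tested genes. H2-T23, which encodes the Qa-1 ligand of CD94 and NKG2 receptors, had 411 ± 64.2 CPM in Tn and 211 ± 71.8 CPM in WT tumours (log2 fold change 0.96 ± 0.22, edgeR adjusted p = 0.0049). No tested NKG2D ligand rose. Ulbp1 (MULT1) had 53.3 ± 12.4 CPM in Tn and 89.3 ± 13.1 CPM in WT tumours, with every Tn tumour below every WT tumour (log2 fold change -0.74 ± 0.15, edgeR adjusted p = 0.00251), and H60b fell by 0.94 on the log2 scale (edgeR adjusted p = 0.00494). Raet1d (0.05), Raet1e (0.00) and H60c (-0.65) did not pass. Cfp (properdin), a ligand of NKp46, was higher (0.70 ± 0.23). Of the cadherins that Klrg1 reads, Cdh2 fell by 1.41 (edgeR adjusted p = 0.0242) and Cdh1 (-0.29) did not pass. Of 13 ligand genes listed, 9 were found by symbol among the counted genes. Raet1a, Raet1b, Raet1c and H60a were not found, so these NKG2D ligands could not be tested.

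Behind the receptors, 15 of 16 adaptor and proximal signalling genes rose, where 19.5% of all tested genes did. Hcst (DAP10), through which NKG2D signals, had 3.63 ± 2.74 CPM in Tn and 0.996 ± 0.194 CPM in WT tumours, without overlap (log2 fold change 1.86 ± 0.41, edgeR adjusted p = 0.00379), and Tyrobp (DAP12), the adaptor of NKG2C, also expressed by myeloid cells, rose by 0.85 ± 0.24. Zap70, a kinase of NK and T cells, rose by 3.27 ± 0.63, and Sh2d1b1 (-0.50, edgeR adjusted p = 0.142) did not pass. Summed macrophage markers were 1957 to 5957 CPM in Tn tumours and 1394 to 2105 CPM in WT tumours, and their part in the adaptor levels was not tested. Of 10 neutrophil markers 1 passed the test, Mmp9, at 103 to 1361 CPM in Tn and 1673 to 3580 CPM in WT tumours, and it carried most of their sum (139 to 1393 CPM in Tn and 1752 to 3612 CPM in WT tumours). The median log2 fold change of the 10 was -0.05. Of 23 other NK surface receptors 14 rose and 0 fell (19.5% and 17.4% over all tested genes). Those that rose include Itga1 (CD49a, 1.29 ± 0.16), Cd226 (DNAM-1, 2.53 ± 0.54) and Cd96 (3.29 ± 0.62), while Tigit (-0.79 ± 0.45) and S1pr1 (-0.03 ± 0.36) did not pass. Itga1 had 107 to 190 CPM in Tn tumours, lowest in Tn tumour 2 and highest in Tn tumour 6, and 47.2 to 76.6 CPM in WT tumours. The part of other cell types in the levels of these receptors was not tested.

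The transcription factors and cytokines of NK cells differed among themselves. Tbx21 (T-bet), which drives maturation of NK cells and effector T cells, had 3.28 ± 2.23 CPM in Tn and 0.306 ± 0.243 CPM in WT tumours, without overlap (log2 fold change 3.42 ± 0.60, edgeR adjusted p = 0.00109). Eomes, the related factor of mature NK cells, had 0.328 to 6.69 CPM in Tn tumours and 4.33 to 6.44 CPM in WT tumours. In 5 of 6 Tn tumours Eomes lay below every WT tumour, and in Tn tumour 4 above (log2 fold change -0.87 ± 0.49, edgeR adjusted p = 0.184). The mean of Ncr1 in WT tumours was 0.384 CPM. Over the 6 WT tumours Eomes correlated at r = -0.854 (Klrc2) to -0.479 (Klrk1) with the 5 lectin-like genes. With Ncr1 it gave 0.225 and with Klrb1c 0.115, and which cells carried Eomes was not tested. Of 15 such factors 6 rose and 1, Prdm1, fell (-1.0 ± 0.23), where 19.5% and 17.4% of all tested genes did. Of 18 cytokine genes 13 rose and 0 fell (against the same 19.5% and 17.4%), with Il15 at 7.09 ± 1.88 CPM in Tn and 3.70 ± 0.980 CPM in WT tumours and Il2rb, the receptor chain that reads interleukin 15, at 49.4 ± 27.0 CPM in Tn and 8.28 ± 3.51 CPM in WT tumours. Cish, an inhibitor induced by that receptor, rose by 1.59 ± 0.14 (edgeR adjusted p = 2.29e-05), and Il18rap (-0.33) and Il15ra (0.29) did not pass.

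Of 19 effector genes 15 rose and 1, the granzyme Gzmm, fell (-0.94 ± 0.31), beside 19.5% and 17.4% of all tested genes. Nkg7, a granule protein, rose by 3.35 ± 0.49 and the pore protein gene Prf1 by 2.79 ± 0.45. Of 11 genes of the XCL1 axis 6 rose and 0 fell, beside the same shares. Xcr1, the XCL1 receptor, had 2.25 ± 1.47 CPM in Tn and 0.270 ± 0.149 CPM in WT tumours, with 5 of 6 Tn tumours above every WT tumour (log2 fold change 3.05 ± 0.60, edgeR adjusted p = 0.0021). Batf3, the factor that cross-presenting dendritic cells need, rose by 1.41 ± 0.20, and Flt3 (1.22 ± 0.56) and Snx22 (0.38 ± 0.25) did not pass. Among markers of other innate lymphoid cells, Rora fell (-1.04 ± 0.21), Il7r (0.84 ± 0.41) did not pass, and Il22 had no count in any tumour.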

How the data were processed

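Tumour RNA was enriched for poly(A), made into stranded libraries and sequenced as read pairs, and samples needed an RNA integrity number above 7, per the labels. The submitters' processing notes name FastQC, fastp 0.23, STAR 2.7.11a with GRCm39, and featureCounts from Subread 2.1.1. The deposited table holds raw exon counts for each Ensembl 112 gene; per the file headers the authors ignored strand, required both ends to map, and did not switch on counting of whole pairs. From 66.4% to 72.5% of low counts were even numbers, so most pairs add 2 counts. The totals exceed the reads stated per sample even allowing for this, and the cause is not known. Sense and antisense reads over the same place are not separated.

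Symbols and positions were paired to 56630 of 57186 rows from a later GRCm39 annotation. Tn was compared with WT by the robust quasi-likelihood test of edgeR 4.0.16 (R 4.3.3) after TMM scaling and filterByExpr, with no covariate. The p-values are two-sided with Benjamini-Hochberg adjustment over 19255 genes and a threshold of 0.05. CPM are TMM-scaled, and each SE was taken from the log2 fold change and its F statistic. The biological coefficient of variation within groups was 0.358, and libraries of a group differed by more than sampling noise (chi-square per degree of freedom at least 37.4). The code was tested on simulated counts. The 5 ratios used log2 CPM with a prior count of 2. The alternatives used limma 3.58.1 and DESeq2 1.42.0 besides edgeR, each tumour left out, the replicate number as a block, the CD3 level as a covariate, and removal of 3 libraries.

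The 10 genes, the gene lists and the tests were chosen with earlier results of these data known. Named besides the 10 are C1galt1c1, the CD3 chains, all ligands and Ly49 genes, up to 6 members of each list with the smallest p and 3 with the largest, the 5 genes with the pattern most like that of 5 of the genes, and genes past the threshold in the NK gene complex; Cd8a, Tyrobp, Cd79a, Eomes, Klra genes without a test, Gzmm and others outside this rule were chosen after their values were seen. The numbers in the library names are all lower for Tn than for WT tumours, and an effect of that order cannot be told apart from the group. Not every member of the gene lists is reported here.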

Additional observations from a re-analysis of the deposited data

Results flagged for a closer look

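Of 30 groups of 6 tumours examined (the 10 genes and the 5 ratios in each group), 4 held a tumour whose gap to its nearest neighbour exceeded the critical value of Dixon's test relative to the range of the group, where chance gives about 1 in 20 groups. Klrb1c in Tn tumour 4 was at 1.82 CPM (0.803 of the range) and Ncr1 in Tn tumour 4 at 4.93 CPM (0.649). The mean of the other 5 Tn tumours was 0.282 CPM for Klrb1c and 1.16 CPM for Ncr1. The log2 ratio of Klre1 to Cd3e in Tn tumour 4 was -5.00 (0.705 of the range). Klre1 in WT tumour 5 was at 0.417 CPM (0.698 of the range), and that tumour was also the highest WT tumour for all 10 genes. Tn tumour 4 had the highest summed B cell markers of the 12 tumours, 2051 CPM, and their part in these values was not tested.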

How the results depend on the processing

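All 10 genes were called higher with RLE or upper-quartile scaling, DESeq2 or no filter, 9 with limma voom, and 8 to 10 with each tumour left out. At a mean of at least 1 CPM only 5 of the 10 were tested and 5 were called. At a threshold of 0.01, 4025 genes were called, against 7094 at 0.05, and 7 of the 10. With each tumour left out 6131 to 7061 genes were called. With the CD3 level as a covariate 1825 genes and 0 of the 10 were called, and the log2 fold changes of Klrb1c (-0.74) and Cd69 (-0.37) changed sign without passing; the cause was not tested. Over the ratios with each tumour left out, Klrc1/Klrc2 ran from -1.12 to -0.85, Klrg1/Klrd1 from -1.64 to -1.08, Klre1/Cd3e from -0.99 to -0.51, Ncr1/Cd3e from -2.13 to -1.50 and Xcl1/Ncr1 from -0.13 to 0.44, which changed sign without Tn tumour 2 (-0.09), Tn tumour 5 (-0.13) or WT tumour 1 (-0.03). Klre1/Cd3e was -0.77 at a prior count of 0.5 (exact permutation test, adjusted p = 0.0514). Without Tn tumours 4 and 6 and WT tumour 6, which leaves fewer assignments, Klrc1/Klrc2 (-0.85), Klrg1/Klrd1 (-1.59), Klre1/Cd3e (-0.54) and Ncr1/Cd3e (-1.82) did not pass. Klrc1/Klrc2 then had the smallest unadjusted p that these assignments allow (exact permutation test, p = 0.0159).

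The replicate numbers do not show pairs: same-numbered tumours correlated at -0.125 to 0.158, and 1 of 12 correlated best with its own number. With the replicate number as a block 7 of the 10 genes were called, without Klrb1c (1.44), Klrg1 (1.49) and Ncr1 (1.95). In that setting Klrc1/Klrc2 (-1.01), Klrg1/Klrd1 (-1.45), Klre1/Cd3e (-0.88) and Ncr1/Cd3e (-1.80) had exact permutation adjusted p of 0.0521, 0.0781, 0.0521 and 0.0521. The smallest unadjusted p that the blocked exact permutation test can give is 0.0312, and Klrc1/Klrc2, Klre1/Cd3e and Ncr1/Cd3e had it. Depth limits the genes with few counts in WT tumours, since some WT libraries hold under 20 counts of Klrb1c, Klrc2, Klre1, Klrc1, Klrg1 or Ncr1. A count of 0 for Klrc2 in WT tumour 6 allows up to 0.0478 CPM (3 pairs), a limit that covers counting error only.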
